A study of Mus musculus with 4 samples.

Results

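The 43 genes described here encode the machinery that builds autophagosomes, the receptors that load cargo into them and the transcription factors that drive their genes. They were chosen by name (all rows whose symbol begins with Atg and a digit, and 25 further symbols) and by a minimum of 10 raw counts in at least 2 libraries. All 43 rows found by name met that minimum, of 21878 rows in the tables. The lowest count of any member in any library was 45 (Atg10), so no member lay near the threshold and none was left out. The minimum removed no row, so the names alone set the membership. The names themselves were chosen with earlier results of these data known.

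The RNA came from livers of C57BL/6 mice, from cells sorted with magnetic beads for the surface protein CD24, with 2 libraries for each of 2 treatments and no untreated group. CCL4 mice received carbon tetrachloride, a toxin that injures hepatocytes, at 2 ml/kg in olive oil by intraperitoneal injection, 2 times a week for 6 weeks. HACY mice were injected 3 times a week for 6 weeks with a mixture of 3 compounds at doses not given in the labels. One was CHIR99021, which blocks GSK3 and so activates Wnt signalling, another A-83-01, which blocks signalling by TGF-beta receptors, and the last Y-27632. The labels leave unclear whether HACY mice also received carbon tetrachloride, and they give the age as 8 weeks at injection in one field and as 6 to 8 weeks in another. Nothing in them states that the 2 libraries of a treatment are different animals. The p-values therefore reflect the spread among these 4 libraries, which may be technical. Rises and falls below are HACY relative to CCL4.

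Macroautophagy encloses a portion of cytoplasm in a double membrane and delivers it to the lysosome. The ULK kinase complex starts the process, a class III phosphatidylinositol 3-kinase complex marks the site with the lipid PI3P, lipid transfer proteins and ATG9 vesicles feed the growing membrane, and a ubiquitin-like conjugation system attaches LC3 and GABARAP proteins to it. Cargo receptors such as p62 bind both LC3 and ubiquitinated cargo, and are themselves degraded with it. In the liver the pathway supplies amino acids in fasting and clears damaged mitochondria, protein aggregates and lipid droplets, and p62 accumulates in hepatocytes when it is blocked. RNA levels show neither autophagic flux nor protein levels.

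The libraries summed to between 18467299 and 19314219 counts. The labels call the sorted cells both hepatocytes and liver progenitor cells. Hepatocyte markers were present in all 4 libraries, and 8 of 10 rose in HACY. Their summed level (CPM by library size) was 27094.5 and 33316.5 in HACY and 10043.3 and 8580.4 in CCL4. Alb supplied most of these sums, with 439543 and 534928 counts in HACY and 137867 and 111529 in CCL4. Apob (0.60, SE 0.17) and Hnf4a (-0.04, SE 0.26) were not called. Macrophage markers had 10 of 11 members higher (3944.9 and 2720.3 in HACY against 1245.1 and 1658.3 in CCL4). Biliary and progenitor markers had 1 of 9 higher (2831.5 and 3953.1 against 1280.2 and 2362.2). Spp1, which was not called (edgeR adjusted p = 0.0641), supplied most of these sums. It had 51959 and 72595 counts in HACY and 21425 and 42771 in CCL4, so the sums do not describe the list as a whole. Cd24a itself had an adjusted p of 0.279 in the edgeR test. CCL4 replicate 2 held more neutrophil marker RNA (259.7 CPM over 11 markers) than the other 3 libraries (34.6 to 41.2), and 1 of 9 tested neutrophil markers, Cxcr2, was called lower in HACY. Endothelial markers had 2 of 6 higher and 1 lower, and those of B cells and stellate cells had no call. Of the markers of T cells, Cd3e and Cd3d had at most 3 counts in any library. Cd4, the 1 tested marker of T and NK cells, had 28 and 19 counts in HACY and 7 and 4 in CCL4. It was not called (2.22, SE 0.59, edgeR adjusted p = 0.0520). The part that these shifts in marker RNA played in the values below was not tested. In these bulk libraries fewer cells of a type and less RNA per cell cannot be told apart.

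The members were compared in 8 groups: the steps of the pathway, mitophagy receptors and transcription factors. Across the 43 members 6 fell and none rose at an edgeR adjusted p below 0.05 (13428 genes tested). The 6 were Sqstm1, Nbr1, Map1lc3a, Atg14, Atg101 and Atg9b, 14.0% of the members. Among all tested genes 3.54% were called lower and 8.19% higher, or 11.7% in either direction. Because the list was chosen with earlier results of these data known, its contrast with all genes is not a test. At an unadjusted p below 0.05 there were 8 members with a negative and 2 with a positive change, and DESeq2 called 7 lower and 1 higher (Mitf). The median log2 fold change of the members was -0.12, against -0.01 for all tested genes. Of the members 30 had a negative value and 13 a positive one, where 50.9% of all genes were negative. The 2 HACY libraries lay below both CCL4 libraries for 19 members and above both for 7, against 30.1% and 30.7% of all tested genes. Leaving out HACY replicate 1 gave 3 members called lower, and leaving out HACY replicate 2 gave 2. The count was 3 when CCL4 replicate 1 was dropped and 7 when CCL4 replicate 2 was. None was called higher in any of these fits, each of which leaves 1 library in a group and assumes that it varies like the other group's.

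**Figure D1:**
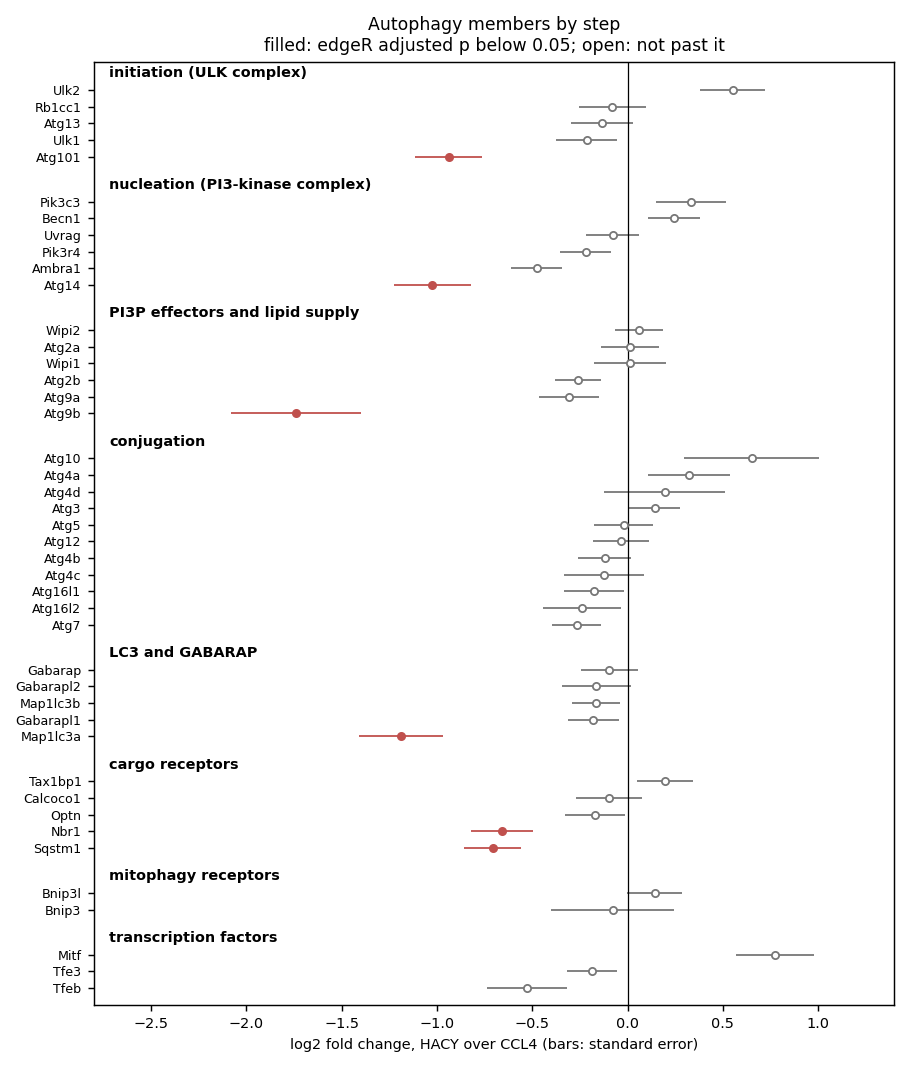
Log2 fold change of HACY over CCL4 for the 43 members (horizontal axis), grouped by step, with bars for the standard error of the edgeR estimate and filled points for members past the threshold. The 6 filled points, between -0.66 and -1.74, are spread over 5 steps, and all 11 conjugation genes are open.

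Each of 5 steps held 1 or 2 of the called genes and none was called throughout, and the 6 genes lie on 5 chromosomes. RefSeq promoters were at hand for 36 of the 43 members (45 promoter windows, build GRCm38.p6). The 250 bases before the annotated start are shown for 3 members that fell, and for Atg3, a conjugation enzyme that did not pass the test and whose window holds the E-box at the core of the CLEAR element, the site through which TFEB and TFE3 act. Capitals mark the E-box, CACGTG, and all are written 5′ to 3′ on the gene's strand.
Sqstm1, chr11:50210821-50211070, minus strand: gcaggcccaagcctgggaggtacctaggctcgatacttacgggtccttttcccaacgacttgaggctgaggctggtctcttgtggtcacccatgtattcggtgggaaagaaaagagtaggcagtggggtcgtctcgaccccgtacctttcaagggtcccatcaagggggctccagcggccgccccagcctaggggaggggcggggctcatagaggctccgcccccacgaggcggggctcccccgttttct
Atg101, chr15:101284051-101284300, plus strand: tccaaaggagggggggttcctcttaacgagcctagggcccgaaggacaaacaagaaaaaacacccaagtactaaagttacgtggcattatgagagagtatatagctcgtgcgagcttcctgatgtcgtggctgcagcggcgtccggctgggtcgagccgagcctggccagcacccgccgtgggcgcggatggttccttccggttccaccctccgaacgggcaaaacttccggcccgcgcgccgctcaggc
Atg9b, chr5:24392144-24392393, minus strand: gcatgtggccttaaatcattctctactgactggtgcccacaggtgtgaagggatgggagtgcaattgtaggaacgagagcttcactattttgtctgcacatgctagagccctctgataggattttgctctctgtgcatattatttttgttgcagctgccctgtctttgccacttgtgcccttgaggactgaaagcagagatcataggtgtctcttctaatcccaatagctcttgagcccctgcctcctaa
Atg3, chr16:45158579-45158828, plus strand: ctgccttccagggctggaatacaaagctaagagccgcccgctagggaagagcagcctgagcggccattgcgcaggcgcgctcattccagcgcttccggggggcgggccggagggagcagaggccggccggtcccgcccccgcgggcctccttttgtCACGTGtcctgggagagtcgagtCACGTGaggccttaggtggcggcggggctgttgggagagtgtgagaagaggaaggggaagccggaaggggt

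The Atg3 window holds the E-box at 2 places, 94 and 71 bases before the RefSeq start. The RefSeq windows of Atg7 and Atg14 lie inside the gene bodies annotated by GENCODE, so they precede an internal start. The same holds for 1 Nbr1 window (101552404 to 101552653), while the other Nbr1 window lies before the gene. The windows of these 3 genes are counted below but not shown. Of the windows shown, those of Sqstm1, Atg101 and Atg3 run a short way into the GENCODE gene bodies. These bodies begin at 50210827, 101284272 and 45158785, so distances from the GENCODE start are shorter. The Atg9b window was 47.6% G and C, that of Sqstm1 63.2% and that of Atg101 61.2%, where the median member window had 58.8% and the median of all windows 52.4%. CACGTG was found in 4 of the 45 member windows (Atg3, Atg5, Atg7 and Bnip3, 8.89%) and in 6.02% of all 32851 windows. With a T before it (TCACGTG on either strand, which overlaps the E-box) the shares were 4.44% (Atg3 and Atg7) and 3.13%. On either strand, the AP-1 site TGANTCA and the FOXO site TGTTTAC were in no member window, against 6.75% and 3.17% of all windows. The core of the antioxidant response element, TGACNNNGC, through which NRF2 acts, was in 4 member windows (Atg13, Mitf, Tax1bp1 and Ulk2, 8.89%) and 10.2% of all. None of these letters occurred in the windows of the 5 called members with an entry. A match describes letters in a short window and is not evidence of binding.

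Cargo receptors held the most abundant member and 2 of the 6 falls. Sqstm1 encodes p62, which gathers ubiquitinated proteins and also binds KEAP1, the repressor of NRF2. It lies on chromosome 11 (50199366 to 50210827, GRCm38, minus strand), where its gene body overlaps Mrnip on the opposite strand (not analysed here). Sqstm1 had 2062 and 1633 CPM (read counts scaled to library size and by TMM) in HACY replicates 1 and 2, and 3148 and 2887 in CCL4 replicates 1 and 2. The groups did not overlap, and both HACY libraries were well below the lower CCL4 library. Sqstm1 was 1.63-fold lower, a log2 fold change of -0.71 (SE 0.15, edgeR adjusted p = 0.0272). Sqstm1 no longer passed once HACY replicate 2 (-0.55, adjusted p = 0.166) or CCL4 replicate 1 (-0.64, adjusted p = 0.0817) was dropped. By the deposited FPKM, a level per transcript length, Sqstm1 ranked 52 and 81 among all rows in HACY and 21 and 33 in CCL4. Its share of all counts was 0.174% ± 0.0323 among HACY libraries and 0.320% ± 0.0240 among CCL4 libraries (SD, n = 2 each). Of the counts on the 43 members it took 43.3% ± 3.80 in HACY and 53.2% ± 0.933 in CCL4.

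Nbr1 encodes a receptor built like p62, with an LC3-interacting region and a ubiquitin-binding domain, and lies on the same chromosome (101552149 to 101581951). It had 123 and 121 CPM in HACY and 223 and 163 in CCL4. The HACY libraries were nearly equal, and the CCL4 libraries stood apart from each other. The change in Nbr1 came to -0.66 on the log2 scale (SE 0.17, edgeR adjusted p = 0.0448). The FPKM ratio of Nbr1 to Sqstm1 overlapped between groups (0.0253 and 0.0306 in HACY, 0.0295 and 0.0241 in CCL4). The Nbr1 call was the weakest of the 6. It ended when HACY replicate 1 (adjusted p = 0.159), HACY replicate 2 (0.173) or CCL4 replicate 1 (-0.41, 0.0624) was dropped, and under limma-voom (0.0540).

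The other 3 receptors did not pass the test, and their libraries overlapped between groups. Tax1bp1, a receptor for ubiquitinated cargo and regulator of inflammatory signalling, had 222 and 209 CPM in HACY and 210 and 166 in CCL4 (log2 0.20, SE 0.15, edgeR adjusted p = 0.406). Optn, optineurin, which acts with TBK1 in mitophagy and in clearing bacteria, had -0.17 (SE 0.16). Calcoco1, a receptor for the endoplasmic reticulum and Golgi, had -0.10 (SE 0.17). By FPKM the order of levels was Sqstm1 (mean over the 4 libraries 798), Tax1bp1 (45.7), Nbr1 (21.7), Optn (9.0) and Calcoco1 (5.14). The ranges of Tax1bp1 (39.8 to 49.8) and Nbr1 (15.7 to 31.0) did not overlap, and neither did those of the other neighbours in this order.

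**Figure D2:**
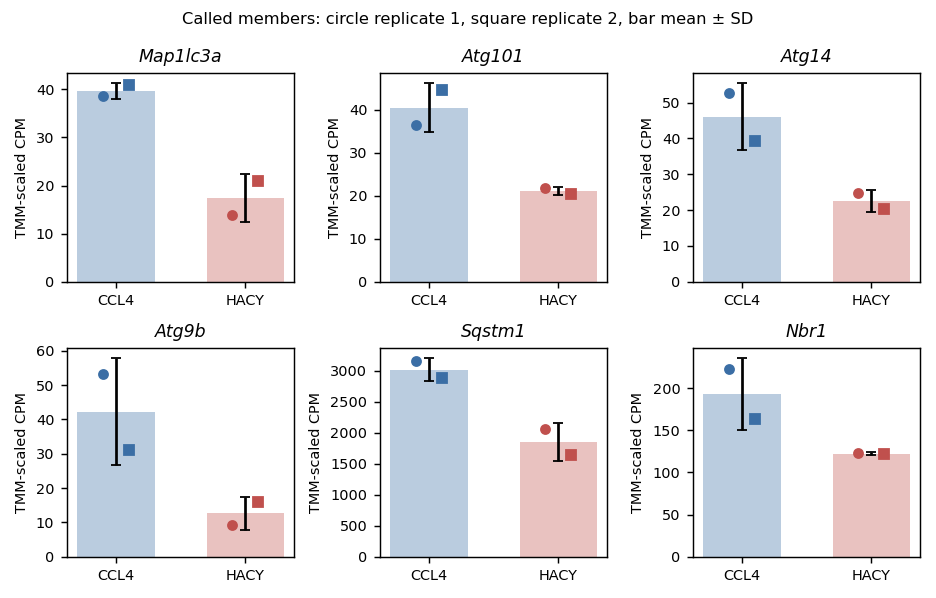
TMM-scaled CPM (vertical axes, from 0) of the 6 called members in each library, with bars for the group mean and SD (n = 2), circles for replicate 1 and squares for replicate 2. Both HACY libraries lie below both CCL4 libraries in each panel, and the CCL4 replicates of Atg9b are at 53.3 and 31.2 CPM.

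Of the 5 genes of the LC3 and GABARAP family, the proteins that coat the autophagosome and bind the receptors, Map1lc3a fell and the other 4 did not pass the test. Map1lc3a encodes LC3A and lies on chromosome 2 (155276297 to 155278073). It had 13.9 and 20.9 CPM in HACY and 38.5 and 40.8 in CCL4, with a log2 fold change of -1.19 (SE 0.22, edgeR adjusted p = 0.0185), 2.28-fold lower. The groups did not overlap. Map1lc3a did not pass when HACY replicate 1 was left out (-0.93, adjusted p = 0.0833). Map1lc3b, the LC3B gene whose product is the common marker of autophagosomes, had 102 and 116 CPM in HACY and 122 and 123 in CCL4 (-0.17, SE 0.13, edgeR adjusted p = 0.413).

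Gabarap, which acts late in autophagosome formation, had 295 and 259 CPM in HACY and 262 and 331 in CCL4 (-0.10, SE 0.15). Gabarapl1 had -0.18 (SE 0.13) and Gabarapl2 -0.16 (SE 0.18). By FPKM, Gabarap was the highest of the family in every library (198 to 281) and Map1lc3b the next (59.4 to 75.0). Gabarapl2 and Gabarapl1 overlapped (35.3 to 48.8 and 32.0 to 43.6), and Map1lc3a was the lowest (8.63 and 12.5 in HACY, 25.8 and 29.5 in CCL4). The FPKM ratio of Map1lc3a to Map1lc3b was 0.145 and 0.192 in HACY and 0.363 and 0.394 in CCL4, so the groups did not overlap. Those of Map1lc3b to Gabarap overlapped (0.257 and 0.329, against 0.325 and 0.267). With 2 libraries a group, an exact permutation test of such a ratio cannot give a p below 0.333.

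Initiation had 1 fall among 5 genes. Atg101 encodes the subunit that stabilises ATG13 within the ULK complex and lies on chromosome 15 (101284272 to 101290945). It had 21.8 and 20.4 CPM in HACY and 36.4 and 44.5 in CCL4, with a log2 fold change of -0.94 (SE 0.18, edgeR adjusted p = 0.0189). Dropping HACY replicate 1 (-0.99, adjusted p = 0.0717) or HACY replicate 2 (-0.89, adjusted p = 0.101) ended the call. Its partners in the complex were nearer to 0, with Atg13, the adaptor, at -0.14 (SE 0.16) and Rb1cc1, the scaffold FIP200, at -0.08 (SE 0.18).

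The 2 ULK kinases pointed in opposite directions without passing the test. Ulk1, the kinase that AMPK activates and mTORC1 restrains, had 47.1 and 60.3 CPM in HACY and 60.3 and 64.4 in CCL4 (-0.22, SE 0.16, edgeR adjusted p = 0.411). Ulk2 had 30.3 and 27.3 in HACY and 19.4 and 19.9 in CCL4 (0.55, SE 0.17, edgeR adjusted p = 0.0802). Both HACY libraries of Ulk2 lay above both CCL4 libraries. The FPKM ratio of Ulk2 to Ulk1 was 0.863 and 0.573 in HACY and 0.395 and 0.408 in CCL4, without overlap.

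In the PI3-kinase complex, Atg14 fell among 6 genes. ATG14 directs the complex to the site where autophagosomes form, whereas UVRAG takes its place in the complex that serves endosomes. The gene lies on chromosome 14 (47540893 to 47570649, minus strand), where it overlaps Gm49004 on the opposite strand (not analysed here). Atg14 had 24.8 and 20.4 CPM in HACY and 52.7 and 39.4 in CCL4, with a log2 fold change of -1.03 (SE 0.20, edgeR adjusted p = 0.0220), 2.04-fold lower. The groups did not overlap, and Atg14 missed the threshold when HACY replicate 2 was dropped (-0.89, adjusted p = 0.104).

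Uvrag had 55.1 and 52.3 CPM in HACY and 60.2 and 53.1 in CCL4 (-0.08, SE 0.14), and the FPKM ratio of Atg14 to Uvrag was 0.478 and 0.412 in HACY against 0.954 and 0.779 in CCL4, without overlap. The core subunits did not pass and differed in sign. Pik3c3, the lipid kinase VPS34, had 0.33 (SE 0.18) and Becn1, beclin 1, 0.24 (SE 0.14), each with both HACY libraries above both CCL4 libraries. Pik3r4, the regulatory subunit VPS15, had -0.22 (SE 0.13), with both HACY libraries below both CCL4 libraries. Ambra1, which links beclin 1 to the cytoskeleton and to ubiquitin ligases, had 72.6 and 70.0 CPM in HACY and 107 and 91.8 in CCL4 (-0.48, SE 0.13, edgeR adjusted p = 0.0617). It passed the threshold by DESeq2 (adjusted p = 0.0488) and limma on FPKM (0.0407). By edgeR it passed with upper-quartile scaling (0.0421), by library size alone (0.0247) and without CCL4 replicate 2 (-0.58, adjusted p = 0.0176).

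Among the 6 genes of PI3P effectors and lipid supply, Atg9b fell and had the largest change of all members. ATG9 proteins are scramblases carried on the vesicles that seed the membrane, and Atg9a is the widely expressed one. Atg9b lies on chromosome 5 (24384181 to 24392143, minus strand) and overlaps Nos3, the endothelial nitric oxide synthase gene, on the opposite strand. It had 9.23 and 16.1 CPM in HACY and 53.3 and 31.2 in CCL4, with a log2 fold change of -1.74 (SE 0.34, edgeR adjusted p = 0.0226), 3.34-fold lower. Atg9b missed the threshold when CCL4 replicate 1 was dropped (-1.30, adjusted p = 0.0512), and the value was -2.19 without HACY replicate 2. Strand use in the counting is not given in the sources used here. Nos3 had 33.9 and 25.7 CPM in HACY and 19.1 and 30.1 in CCL4 (0.28, SE 0.26, edgeR adjusted p = 0.511). Among uncalled members, Atg4b overlaps Thap4 (-0.60, edgeR adjusted p = 0.0364) and Map1lc3b overlaps Zcchc14 (-0.45, edgeR adjusted p = 0.0570) on the opposite strand. The same holds for Atg16l2 with Fchsd2 (0.37), Atg2b with Gskip (0.03), Atg4d with Kri1 (0.01) and Atg9a with Ankzf1 (-0.07). The part of these overlaps was not tested.

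Atg9a had 34.1 and 30.1 CPM in HACY and 38.5 and 41.0 in CCL4 (-0.31, SE 0.16, edgeR adjusted p = 0.233). The FPKM ratio of Atg9b to Atg9a was 1.38 and 0.809 in CCL4 and 0.284 and 0.554 in HACY. Atg2b and Atg2a, bridge-like lipid transfer proteins, had -0.26 (SE 0.12) and 0.01 (SE 0.15). Wipi2, which reads PI3P and recruits ATG16L1, had 189 and 171 CPM in HACY and 163 and 182 in CCL4 (0.06, SE 0.13), and Wipi1 had 0.01 (SE 0.19). The signs of Atg2a, Wipi1 and Wipi2 turned negative by library size alone.

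The conjugation system had no call in either direction among its 11 genes. Its median log2 fold change was -0.03, with 4 positive and 7 negative values, and 0 of the 11 had an unadjusted p below 0.05. DESeq2, limma-voom and limma on FPKM also called 0. Atg3, the E2 enzyme that attaches LC3 to lipid, had 73.8 and 65.3 CPM in HACY and 63.0 and 63.1 in CCL4 (0.14, SE 0.13). This value was -0.03 by library size alone, and also when GC content and length were corrected for. Atg12 and Atg5, which form the E3-like conjugate, had -0.03 (SE 0.15) and -0.02 (SE 0.16).

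Atg7, the E1 enzyme of both conjugation branches, had 64.4 and 72.6 CPM in HACY and 81.5 and 83.5 in CCL4 (-0.27, SE 0.13, edgeR adjusted p = 0.217). Atg16l1, which completes the conjugate, had -0.18 (SE 0.16), and its relative Atg16l2 -0.24 (SE 0.20). Of the ATG4 proteases, which trim LC3 and release it from lipid, Atg4b had -0.12 (SE 0.14), Atg4c -0.12 (SE 0.21), Atg4a 0.32 (SE 0.21) and Atg4d 0.19 (SE 0.32). Atg10, the E2 enzyme of ATG12, was the lowest member, at 3.44 and 4.26 CPM in HACY and 2.68 and 2.22 in CCL4 (0.65, SE 0.35, edgeR adjusted p = 0.261). Values of the step thus ran from -0.27 to 0.65. In simulated data the test found 10% of 1.5-fold and 50% of 2-fold changes. Those data gave 135 calls against 1576 in the real fit, whose cutoff on the unadjusted p was looser. The rates therefore do not carry over, and a gene without a call is not shown to be unchanged.

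**Figure D3:**
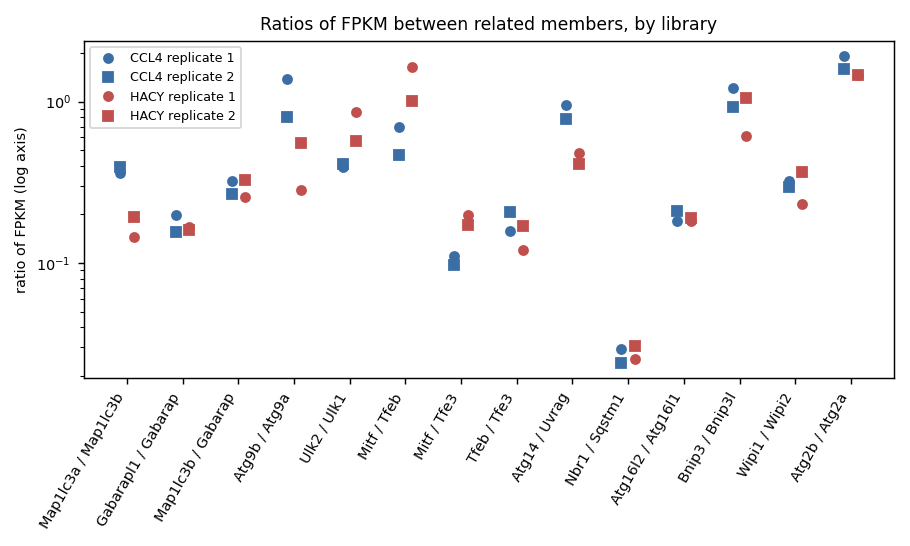
Ratios of deposited FPKM between related members (vertical axis, log scale) in each library, in blue for CCL4 and red for HACY, with circles for replicate 1 and squares for replicate 2. Groups stand apart for Map1lc3a to Map1lc3b, Atg9b to Atg9a, Ulk2 to Ulk1, Atg14 to Uvrag, Atg2b to Atg2a and Mitf to Tfeb or Tfe3, and overlap for the other 7 pairs.

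Bnip3 and Bnip3l are hypoxia-inducible receptors of the outer mitochondrial membrane. Bnip3 varied more between replicates than between groups (14.0 and 27.5 CPM in HACY, 24.9 and 18.9 in CCL4; log2 -0.08, SE 0.32). Bnip3l had 53.1 and 62.3 CPM in HACY and 50.4 and 54.3 in CCL4 (0.14, SE 0.15). Neither passed the edgeR test, 0 of the 2 had an unadjusted p below 0.05, 0 were called by DESeq2, limma-voom or limma on FPKM, and the groups overlapped for both.

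Of the MiT transcription factors, which bind the CLEAR element, none of 3 passed the edgeR test. Mitf, prominent in pigment cells, osteoclasts and macrophages, had 30.3 and 23.0 CPM in HACY and 16.4 and 14.8 in CCL4 (0.77, SE 0.21, edgeR adjusted p = 0.0530). DESeq2 called it (adjusted p = 0.0229), and limma-voom and limma on FPKM called 0 of the 3. At an unadjusted p below 0.05 there were 1 positive and 1 negative. Tfeb, the best known activator of lysosomal and autophagy genes, had 12.7 and 15.0 CPM in HACY and 17.8 and 22 in CCL4 (-0.53, SE 0.21, edgeR adjusted p = 0.143). Tfe3 had 107 and 94.7 CPM in HACY and 120 and 110 in CCL4 (-0.19, SE 0.13).

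For each of the 3 factors the HACY and CCL4 libraries stood apart, Mitf upward and the other 2 downward, where 30.7% of all tested genes stood apart upward and 30.1% downward. The FPKM ratio of Mitf to Tfeb was 1.64 and 1.01 in HACY and 0.696 and 0.470 in CCL4. Tfec, the fourth gene of the family, named after its value was seen, was called higher (1.01, SE 0.26, edgeR adjusted p = 0.0495). That was the weakest of the 4 rises called among the pathway genes outside the member list, given below. The rises numbered 3 with RLE, upper-quartile or library size scaling and with the stricter filter. Tfec missed the threshold when HACY replicate 1 (0.60, adjusted p = 0.376) or CCL4 replicate 1 (0.90, adjusted p = 0.119) was dropped, and under limma-voom (0.0670) and limma on FPKM (0.168). Macrophage markers moved in the direction of Mitf and Tfec, 10 of 11 higher with a median log2 fold change of 1.60. So did hepatocyte markers, 8 of 10 higher (median 1.28), and endothelial markers, 2 of 6 higher and 1 lower (median 0.97). The part of these cell types in the Mitf and Tfec values was not tested.

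**Figure D4:**
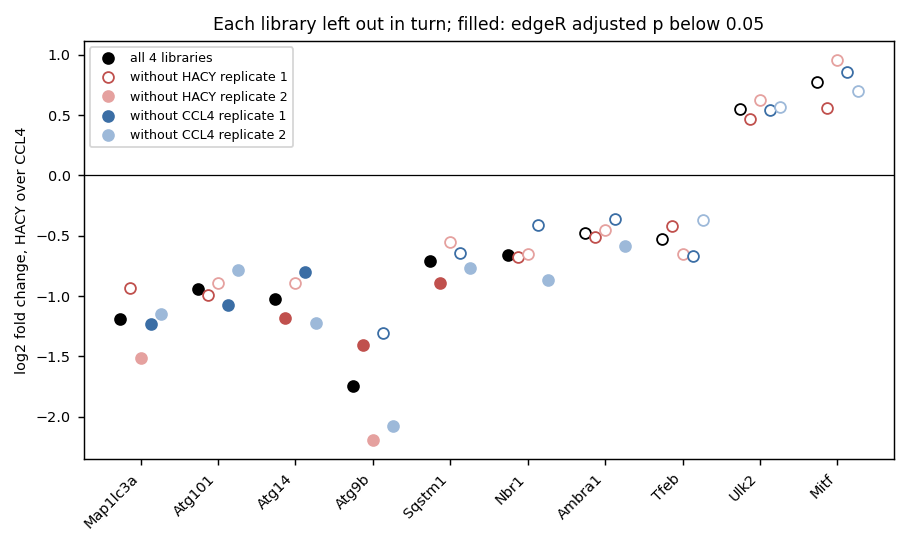
Log2 fold change of HACY over CCL4 (vertical axis) for the 6 called members and 4 others, with all 4 libraries and with each library left out in turn, filled where the edgeR adjusted p was below 0.05. All 6 called members stay below 0, and the counts of filled points without 1 library run from 1 of 4 for Nbr1 to 3 of 4 for Map1lc3a, Atg14 and Atg9b.

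The rest of the pathway was followed in 102 genes outside the member list, of which 101 were tested, 4 rose and 7 fell, with a median log2 fold change of -0.01. Both shares, 3.96% and 6.93%, stood against 8.19% and 3.54% of all genes. Dropping HACY replicate 1 gave 1 rise and 0 falls, and dropping HACY replicate 2 gave 3 and 1. With CCL4 replicate 1 dropped there were 2 and 6, and with CCL4 replicate 2 dropped 7 and 12. By library size alone 11 fell and 3 rose.

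Nrbf2, a subunit that binds ATG14 in the same PI3-kinase complex, fell among 10 membrane and PI3P regulators. It had 15.7 and 17.2 CPM in HACY and 35 and 26.9 in CCL4 (-0.91, SE 0.20, edgeR adjusted p = 0.0298). With HACY replicate 1 dropped the adjusted p was 0.167, with HACY replicate 2 dropped 0.0987 and with CCL4 replicate 1 dropped 0.0568. Vps11, a core subunit of the HOPS tether, fell among 14 genes of fusion with the lysosome (-0.52, SE 0.12, edgeR adjusted p = 0.0394), and missed the threshold when HACY replicate 1 (0.265), HACY replicate 2 (0.268) or CCL4 replicate 1 (0.0544) was dropped. None of 13 other receptors of cargo and organelles passed the edgeR test or lay outside -0.64 to 0.27, and 1 was positive and 1 negative at an unadjusted p below 0.05. DESeq2 and limma on FPKM each called 1 lower. None of 6 genes tied to p62 signalling passed by edgeR, DESeq2, limma-voom or limma on FPKM, and 0 had an unadjusted p below 0.05. Of these, 3 are named after their values were seen: Nfe2l2, the NRF2 gene, had 311 and 304 CPM in HACY and 331 and 286 in CCL4, Keap1 had a log2 fold change of 0.25 (SE 0.14) and Hmox1, an NRF2 target, -0.31 (SE 0.17).

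Upstream, Rragd, a Rag GTPase that brings mTORC1 to the lysosome and a known TFEB target, had the largest fall. It had 5.90 and 9.25 CPM in HACY and 22.4 and 20.9 in CCL4 (-1.52, SE 0.26, edgeR adjusted p = 0.0138; 0.0550 without HACY replicate 1). It was the 1 call among 26 genes of mTORC1 and its amino acid inputs, whose median was -0.08. Prkaa2, the AMPK catalytic subunit alpha 2, was the 1 call among 7 AMPK genes (-0.68, SE 0.17, edgeR adjusted p = 0.0420), which missed the threshold when HACY replicate 1 (0.241), HACY replicate 2 (0.0865) or CCL4 replicate 1 (0.0823) was dropped.

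Inducers of autophagy genes had 3 falls and the rise of Tfec among 12. These were 25% and 8.33% of the list, where 3.54% of all tested genes were called lower and 8.19% higher. Foxo3, a fasting-responsive activator of autophagy genes, had 70.2 and 68.1 CPM in HACY and 141 and 104 in CCL4 (-0.82, SE 0.17, edgeR adjusted p = 0.0242). Ddit4, the mTORC1 inhibitor REDD1, had -0.73 (SE 0.16, edgeR adjusted p = 0.0297). Trp53inp1, a p53 target whose product binds LC3, had -1.35 (SE 0.32, edgeR adjusted p = 0.0387), with CCL4 libraries at 243 and 118 CPM. All 3 calls were lost without HACY replicate 1 (adjusted p = 0.0757, 0.184 and 0.359) or HACY replicate 2 (0.0925, 0.196 and 0.225), and the Trp53inp1 value was -0.73 without CCL4 replicate 1. Trp53inp1 also missed the threshold under limma-voom (adjusted p = 0.0530).

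The lysosome list had 3 rises and no fall among 13, with a median of 0.38. The rises were 23.1% of the list, where 8.19% of all tested genes were called higher. Ctsl, a cysteine protease, went from 749 and 940 CPM in CCL4 to 1667 and 1736 in HACY (1.01, SE 0.14, edgeR adjusted p = 0.00713) and kept its call with any 1 library left out. Ctsb had 0.92 (SE 0.17, edgeR adjusted p = 0.0185) and Gusb, beta-glucuronidase, 0.72 (SE 0.15, edgeR adjusted p = 0.0258). Ctsb missed the threshold with HACY replicate 1 (adjusted p = 0.0625) or CCL4 replicate 1 (0.0706) dropped. Gusb missed it with HACY replicate 1 (0.0991) or HACY replicate 2 (0.0929) dropped. By limma on FPKM 1 of the 13, Ctsl, was called, and Ctsb (adjusted p = 0.0558) and Gusb (0.0539) were not. Lamp1, the abundant lysosomal membrane protein, named after its value was seen, had 0.42 (SE 0.13, edgeR adjusted p = 0.0768). Macrophage markers, 10 of 11 higher, moved in the direction of this list too. Hepatocyte markers, 8 of 10 higher, and endothelial markers, 2 of 6 higher and 1 lower, did so as well. The part of these cell types in the list was not tested. The difference between the lysosome list and the members was not tested either.

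**Figure D5:**
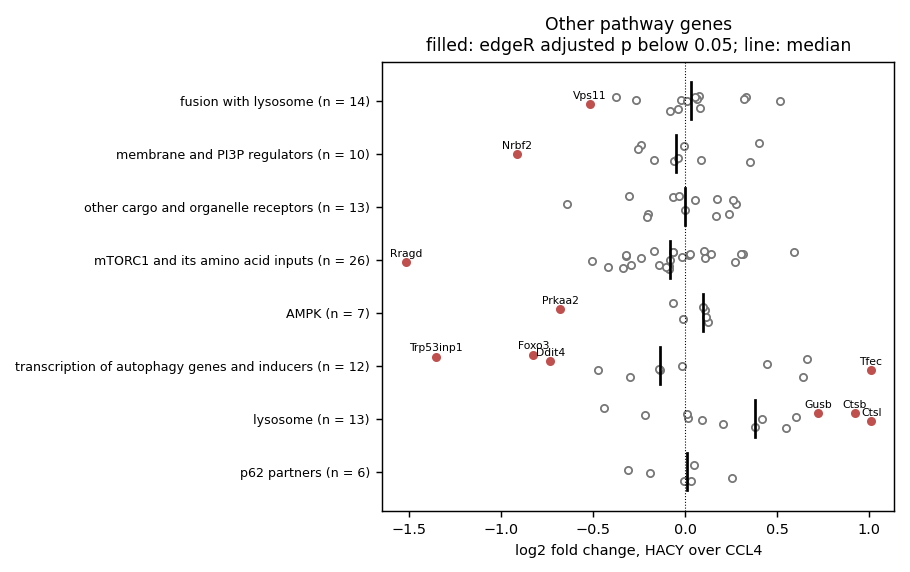
Log2 fold change of HACY over CCL4 (horizontal axis) for the 101 tested genes outside the member list, in 8 lists, with a line at each list's median and filled, named points past the edgeR threshold. The lysosome list has the highest median, 0.38, and 7 of the 11 named genes lie below 0.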

How the data were processed

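Per the labels' protocols, total RNA of sorted cells was made into paired-end stranded mRNA libraries. The authors deposited 1 table per library with a raw read count per gene symbol and an FPKM (scaled to transcript length and library size), per the file headers. Trimmomatic, HISAT2, Cufflinks, HTSeq, DESeq and the build mm10 are named per the submitters' processing notes, without roles or versions. For the annotation and the strand setting, the sources used here give nothing.

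The test on the deposited counts was edgeR's (4.0.16, R 4.3.3): filterByExpr (minimum count 10, minimum total 15), TMM, robust quasi-likelihood fit with treatment as the only term, two-sided, Benjamini-Hochberg over 13428 genes, threshold 0.05. The common dispersion was 0.0272. Standard errors are the log2 fold change over the square root of F. The 27 rows with names turned into dates were tested and never named. Chi-square per degree of freedom between replicates was 19.0 (HACY) and 34.0 (CCL4), so none is a copy. On simulated counts for HACY against CCL4 (13306 genes), the test recovered 10% of changes of 1.5-fold, 50% of those of 2-fold and 100% of those of 4-fold or 8-fold. Of its 135 calls 5 were false. The simulation gave every gene the common dispersion, and the real fit made 1576 calls, so these rates do not carry over to the real data.

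The members and lists were chosen with earlier results of these data known. Named were all called members, the 3 members per step with the highest FPKM, up to 3 called genes per other list and Cd24a; the remaining members are given for completeness. Locations are from GENCODE M21 (GRCm38, the same assembly as mm10), promoters from RefSeq (GRCm38.p6). Alternatives were DESeq2 1.42.0, limma 3.58.1 (voom, and on log2(FPKM + 1)), scaling by RLE, by library size or by the upper quartile, no filter, a stricter filter (minimum count 30), a block on replicate number, each library left out and, added after seeing the data, offsets for GC content and length. Nothing was set aside among the 4 libraries.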

Additional observations from a re-analysis of the deposited data

How the results depend on the processing

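The 6 called members stayed negative under all 14 alternatives, and all 6 stayed called under DESeq2, FPKM, scaling by RLE, by library size or by the upper quartile, both filters and the GC content and length correction. Members called higher numbered 1 by DESeq2, with no filter and after that correction, each time Mitf. A seventh member called lower, under DESeq2, FPKM, upper-quartile or library size scaling, was Ambra1. With each library left out in turn, members called lower numbered 2 to 7, other pathway genes called higher 1 to 7 and lower 0 to 12, and all genes called 629 to 3047. Other pathway genes called higher numbered 1 by FPKM and 3 with limma-voom, the stricter filter or scaling by RLE, upper quartile or library size. Those called lower numbered 11 by library size. Library size alone gave 856 genes higher and 1355 lower, upper-quartile 925 and 614, FPKM 640 and 623 and the GC content and length correction 1275 and 1007, against 1100 and 476. By library size the median of all genes was -0.18 and that of the members -0.30.

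The labels number replicates without saying what a number shares. Replicate 1 minus replicate 2 differences of HACY and CCL4 correlated at -0.0989 across genes. With the replicate block all calls numbered 1224, called members 5 (Atg9b lost, adjusted p = 0.0681) and other pathway genes called lower 2 (Rragd and Foxo3 stayed, while Vps11, Nrbf2, Prkaa2, Trp53inp1 and Ddit4 were lost). The rise of Tfec was lost too.

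Signs turned for 13 uncalled members, none above 0.19 in size in the main test. Atg2a turned to -0.050 (upper-quartile), -0.16 (library size) and -0.092 (FPKM), Wipi2 to -0.0044, -0.11 and -0.060, and Wipi1 to -0.049, -0.16 and -0.13, as well as -0.0060 (limma-voom), -0.0028 (replicate block) and -0.042 (GC content and length). Atg3 turned to -0.028 (library size) and -0.027 (GC content and length), Bnip3l to -0.031 (library size) and Calcoco1 to 0.012 (GC content and length). With 1 library left out, values ran from -0.16 to 0.11 for Atg12, -0.081 to 0.11 for Atg2a, -0.20 to 0.75 for Atg4d, -0.16 to 0.13 for Atg5, -0.65 to 0.32 for Bnip3, -0.25 to 0.081 for Gabarap, -0.24 to 0.11 for Rb1cc1, -0.17 to 0.016 for Uvrag, -0.22 to 0.21 for Wipi1 and -0.023 to 0.14 for Wipi2. The cause was not tested. Members had 45 to 62262 counts a library.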
